A study of Mus musculus with 12 samples.

Results

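In wild-type (WT) mouse Th17 cells, 183 chromatin sites that carried little signal in control cells met a rule for opening by dexamethasone (Dex), out of 222105 peaks of open chromatin in the joint peak set (0.0824%). A site was kept when its mean over the WT control libraries was under 2 CPM (counts scaled by each library's total over all peaks), its mean over the WT Dex libraries was at least 2 CPM and at least 2-fold the control mean, and its lowest WT Dex library stood above its highest WT control library. The sites were thus chosen by their CPM in the WT libraries, and all WT values are given as a description. The libraries from cells labelled as a conditional knockout of the glucocorticoid receptor (GR) were not used in the choice, so the response to Dex in those cells is the test reported here. Its p-values are not fully independent of the choice, because the fit took the spread of a peak from all 12 libraries. The separation of WT libraries that the rule asked for favours a small spread. How much GR was left in them is not known.

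Accessibility was measured by ATAC-seq, in which a transposase cuts open DNA and the cut fragments are counted, in 12 libraries in 4 groups of 3. The groups were WT Dex and WT control, from WT (C57/B6) mice, and cKO Dex and cKO control, from mice of the same background with a conditional knockout of GR (GR cKO). CD4+ T cells, naive when taken from spleen and dLN, were cultured into Th17Hom cells, a homeostatic state of the helper T cells that make IL-17, and then received Dex or none for 2 days. Each library was made from 6000 sorted cells, and all groups shared the culture and the library protocol. The labels do not name the promoter that drove the deletion in the cKO, its efficiency or the number of mice behind a group, and in bulk libraries fewer responding cells and less opening per cell cannot be told apart.

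GR is a transcription factor of the nuclear receptor family that stays in the cytoplasm until a glucocorticoid such as Dex binds it. It then enters the nucleus and binds DNA, often as a dimer on a palindromic response element, and can recruit remodellers that open chromatin. Most GR binding in other cell types falls on sites that are already accessible, often bound by factors such as AP-1, and a smaller part on sites that were closed before. In T cells glucocorticoids are known for inducing death of thymocytes, for dampening cytokine genes and for raising chemokine and cytokine receptors such as Cxcr4 and Il7r.

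The count totals ran from 12988437 to 25081591 per library. Strong peaks at 14 T cell identity genes (median of the strongest peak per gene 48.5 CPM in WT Dex and 45.6 CPM in WT control) and at 30 Th17 genes (39.2 CPM in WT Dex and 40.8 CPM in WT control) fitted the labelled cell type. In cKO the T cell identity median was 43.8 CPM with Dex and 43.6 CPM in control, and the Th17 median 40.9 and 41.8 CPM. For markers of other cells the median in WT Dex was 4.82 CPM (CD8 T and NK), 5.54 CPM (myeloid and dendritic) and 7.66 CPM (erythroid and stromal). Of 10 B cell marker genes 9 had a tested peak, and their strongest peaks had a median of 3.08 CPM in WT Dex and 3.32 CPM in WT control. The sums over all peaks of the B cell markers were 382 to 396 CPM in WT Dex and 424 to 440 CPM in WT control, 419 to 446 CPM in cKO Dex and 445 to 454 CPM in cKO control. The strongest 10% of peaks held 60.8 to 63.5% of counts in WT Dex, 60.6 to 62.0% in WT control, 58.1 to 61.6% in cKO Dex and 57.9 to 60.4% in cKO control, and the part of both measures in the results below was not tested beyond the fit with this share as a covariate. At Nr3c1, the gene of GR, the strongest of 19 peaks stood at 68.5, 59.3 and 60.6 CPM in cKO Dex and 55.8, 60.7 and 60.1 CPM in cKO control, against 69.0, 75.8 and 65.6 CPM in WT Dex and 60.7, 71.4 and 69.2 CPM in WT control. Summed over both treatments, the cKO level of these 19 peaks was 0.846 to 1.82 times the WT level, so that none was lost. The labels do not say which part of the gene was deleted, and accessibility does not check the knockout.

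The sequence shown here is the promoter of a gene assigned to the sites, and it does not lie under an opened site. Of 131 promoters (300 bases each, from 250 before to 50 after the start) of 96 genes assigned to the opened sites, 1 (0.763%) held the palindromic GR response element (G, any base, ACA, any 3 bases, TGT, any base, C, which reads the same on both strands), against 94 of 21044 promoters of all genes (0.447%). TGACTCA or TGAGTCA, the AP-1 letters on either strand, stood in 4 of these 131 (3.05%) and in 986 of all (4.69%); the motifs were counted separately and a promoter could hold both. A single match is too few for the shares to be compared. The promoter with the response element was that of Sgk1, the serum- and glucocorticoid-regulated kinase, at chr10:21993640-21993939 on the plus strand of GRCm38.p6 (RefSeq), and it is shown for this match. Capitals mark the match, whose first base stands at -188 counted from the start.
Sgk1: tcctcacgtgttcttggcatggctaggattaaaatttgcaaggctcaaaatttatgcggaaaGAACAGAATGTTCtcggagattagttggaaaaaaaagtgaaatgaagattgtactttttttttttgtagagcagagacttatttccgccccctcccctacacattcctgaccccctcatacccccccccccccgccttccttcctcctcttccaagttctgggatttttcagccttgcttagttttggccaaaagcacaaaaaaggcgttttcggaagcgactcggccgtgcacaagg
The match, at chr10:21993702-21993714, lay between 2 peaks. The peak over the start, chr10:21993882-21995155, stood at 36.3, 36.5 and 33.8 CPM in WT Dex and 25.3, 29.5 and 25.0 CPM in WT control, without overlap, a log2 fold change of 0.47 ± 0.11 (SE, n = 3 per group) with an edgeR adjusted p of 0.0212. In cKO Dex it stood at 28.6, 28.6 and 27.9 CPM and in cKO control at 25.4, 27.2 and 24.5 CPM, also without overlap. The log2 there was 0.20 ± 0.11 with an edgeR adjusted p of 0.865. The peak upstream, chr10:21992003-21993668, had 12.5, 10.9 and 14.5 CPM in WT Dex and 7.70, 9.70 and 9.19 CPM in WT control, which was not called (log2 0.54 ± 0.14, edgeR adjusted p = 0.06). In cKO this upstream peak had 9.53, 12.1 and 11.7 CPM with Dex and 9.47, 8.47 and 9.53 CPM in control, not called either (log2 0.34 ± 0.14, edgeR adjusted p = 0.838). The match says nothing of binding. The sequences under the opened sites themselves were not analysed here.

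The 183 sites were weak in the control cells that chose them, but not weaker than most peaks. Their mean level in WT control ran from 0.264 to 1.95 CPM with a median of 1.16, and the median of all 222105 peaks was 1.06 CPM, so 52.8% of all peaks lay below the sites' median. Of all peaks, 146867 (66.1%) had a WT control mean under 2 CPM, and the sites were 0.125% of those. In WT Dex the sites ran from 2.0 to 13.3 CPM with a median of 3.04, and 74.6% of all peaks lay below that median. Per kb of peak, a scale that allows for width, the sites' median was 7.26 CPM in WT Dex and 2.71 CPM in WT control, against 3.15 CPM in WT Dex and 3.38 CPM in WT control for all tested peaks. For the tested peaks under 2 CPM in WT control it was 2.29 CPM in WT Dex and 2.49 CPM in WT control. "Nearly closed" therefore describes a level typical of the joint peak set, far below the strong peaks of T cell genes. The counts behind the means had a median of 54 reads per library in WT Dex and 22 in WT control, 42 in cKO Dex and 25 in cKO control.

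In cKO control, whose libraries did not enter the choice, 143 of the 183 sites (78.1%) were under 2 CPM. That was a smaller share than the 94.7% of tested peaks under 2 CPM in WT control, and a larger one than the 61% of all tested peaks. Their median there was 1.55 CPM, with quartiles of 1.20 and 1.94 CPM. The mean in cKO control was above that in WT control at 161 sites (88.0%), against 68.5% of all tested peaks under 2 CPM in WT control, and at 45 of 183 sites every cKO control library was above every WT control library, against 9.4% of all tested peaks and 11.2% of those under 2 CPM. The choice of sites low in WT control favours this direction. The tested peaks under 2 CPM were also weaker than the sites, with a WT control median of 0.739 CPM, so they are not matched in level. The highest cKO control level was at a site within Mkln1, which encodes the adaptor muskelin (chr6:31491201-31491571), with 4.15, 5.11 and 4.09 CPM in cKO Dex and 3.97, 3.66 and 5.68 CPM in cKO control. That site had 3.60, 4.69 and 4.22 CPM in WT Dex and 1.46, 2.32 and 1.87 CPM in WT control, so its cKO control libraries overlapped the WT Dex libraries and stood above all WT control libraries. Next were sites at chr1:88577961-88579012 and near H2-T-ps (chr17:36114155-36114558), with cKO control means of 3.27 ± 0.188 CPM at the chromosome 1 site and 3.24 ± 0.668 CPM near H2-T-ps (SD, n = 3). The lowest was near Resf1, a factor in silencing of retroelements (chr6:149348232-149348536), with a cKO control mean of 0.410 ± 0.0994 CPM.

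With Dex, most sites also had a higher level in cKO cells, by a smaller ratio than in the WT cells they were chosen in, and few passed the test one by one. The summed level of the 183 sites was 344, 359 and 389 CPM in cKO Dex and 301, 283 and 306 CPM in cKO control, a ratio of the means of 1.23. In WT, where the sum was chosen to differ, it was 660, 598 and 635 CPM with Dex and 204, 222 and 236 CPM in control, a ratio of 2.86. The cKO groups did not overlap, and their means, 364 ± 23.1 CPM in cKO Dex and 297 ± 12.2 CPM in cKO control, differed by 67.7 CPM (SD, n = 3), against a difference of 410 CPM in WT. All cKO Dex libraries stood below all WT Dex libraries. The median site stood at 1.75, 1.79 and 2.02 CPM in cKO Dex and 1.54, 1.46 and 1.62 CPM in cKO control, also without overlap.

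**Figure D1:**
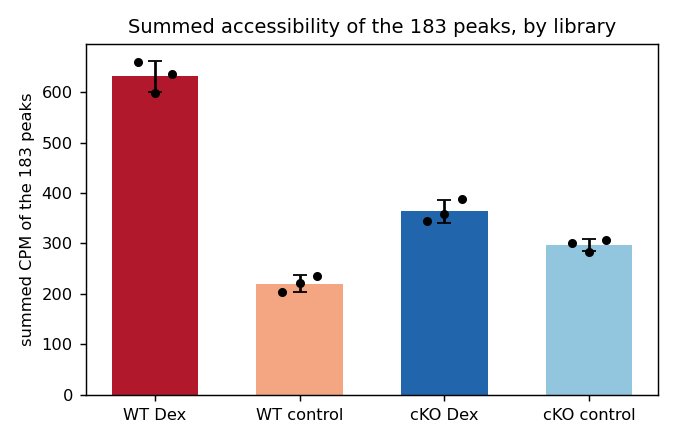
Summed CPM of the 183 sites in each library (points), with the group mean (bars) and SD (error bars, n = 3), for WT Dex, WT control, cKO Dex and cKO control. The WT Dex libraries sit between 598 and 660 CPM and WT control between 204 and 236 CPM, by choice of the sites; cKO Dex libraries sit between 344 and 389 CPM, above cKO control between 283 and 306 CPM.

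Site by site, the log2 fold change of Dex in cKO had a median of 0.32 (1.25-fold), with quartiles of 0.11 and 0.55, and was above 0 at 158 sites (86.3%) and below 0 at 25. Over all 202587 tested peaks the median was -0.00428 with 49.5% above 0, and over the 127349 tested peaks under 2 CPM in WT control it was -0.13 with 39.0% above 0. All 183 sites passed the filter on low counts, which the WT Dex libraries that chose them could by themselves satisfy. Every cKO Dex library was above every cKO control library at 41 sites (22.4%), against 4.29% of all tested peaks and 2.77% of those under 2 CPM in WT control. The reverse held at 2 sites (1.09%), against 6.57% of all tested peaks, and 140 sites overlapped. An unadjusted edgeR p under 0.05 was reached by 40 sites in the direction of higher with Dex (21.9%), against 2.61% of all tested peaks and 1.21% of those under 2 CPM, and by 0 in the lower direction, against 3.23% of all. The spread behind these p-values comes in part from the WT libraries that chose the sites, so the shares are a description. The tested peaks under 2 CPM in WT control were weaker than the sites, with a median of 0.871 CPM in cKO control against 1.55 CPM. This background is therefore not matched to the sites in level. With the share of counts in the strongest 10% of peaks as a covariate the sites' median log2 stayed at 0.32.

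**Figure D2:**
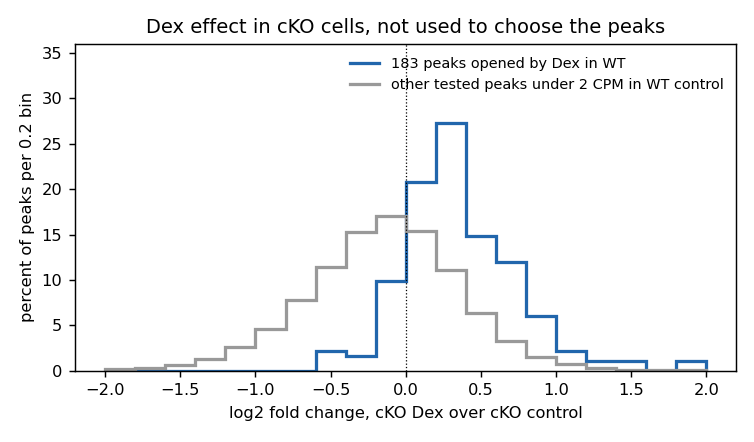
Distribution of the log2 fold change of cKO Dex over cKO control, as the percent of peaks in bins 0.2 wide, for the 183 sites (blue) and the other tested peaks under 2 CPM in WT control (grey). The median is 0.32 for the sites and -0.13 for all tested peaks under 2 CPM in WT control.

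After adjustment over all tested peaks, edgeR called 3 of the 183 sites higher with Dex in cKO (adjusted p under 0.05) and 0 lower. Over all tested peaks it called 6 higher (0.00296%) and 0 lower (0%), and DESeq2 called 10 higher, among them 3 of the sites, and 0 lower. The 3 sites were near Khdc1a, within Neb and on chromosome 2 far from genes. The count changed when a library was left out, which leaves fewer libraries in a group. It was 0 without cKO control replicate 1 or replicate 3, and 1 without cKO control replicate 2 or cKO Dex replicate 2. Higher calls over all tested peaks were 1, 3 and 2 without cKO control replicates 1, 2 and 3. Whether single libraries or the smaller group lowered the counts was not tested. The count of called sites stayed at 3 without cKO Dex replicate 1. It was also 0 with limma-voom and 1 in a fit of the cKO libraries alone. Without cKO Dex replicate 3, the calls over all peaks were 41 higher and 273 lower, while among the sites the same 3 were called higher and 0 lower.

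Near Khdc1a, a gene of a KH-domain family known from oocytes and early embryos, the site at chr1:21333593-21333977 stood at 3.27, 4.20 and 3.70 CPM in cKO Dex and 1.15, 1.57 and 1.08 CPM in cKO control. The groups were apart, and the site rose 2.99-fold (log2 1.58 ± 0.24, SE, n = 3 per group, edgeR adjusted p = 0.000695). In WT it stood at 9.75, 11.3 and 11.7 CPM with Dex and 1.15, 1.66 and 1.99 CPM in control, so the control levels of both genotypes overlapped while the Dex levels did not. The site lay 15.9 kb from the gene and 2 further opened sites lay within 13.3 kb of it.

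Within Neb, which encodes nebulin of muscle fibres, the site at chr2:52304449-52305279 stood at 2.07, 2.87 and 3.14 CPM in cKO Dex and 0.896, 1.15 and 0.879 CPM in cKO control. It rose 2.79-fold (log2 1.48 ± 0.27, edgeR adjusted p = 0.0319). In WT it stood at 8.53, 7.22 and 7.07 CPM with Dex and 0.924, 0.757 and 0.894 CPM in control. The third call, at chr2:149283289-149283661 and 122 kb from the nearest protein-coding gene, stood at 1.59, 3.57 and 3.37 CPM in cKO Dex and 0.704, 0.836 and 0.946 CPM in cKO control, 3.5-fold (log2 1.81 ± 0.31, edgeR adjusted p = 0.01). In WT it had 6.50, 7.22 and 6.84 CPM with Dex and 0.308, 0.568 and 0.935 CPM in control. At each of these 3 sites the cKO Dex libraries were apart from the cKO control libraries and below the WT Dex libraries.

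Further sites whose cKO groups did not overlap had large values that were not called. At chr17:19444779-19445215, 50.4 kb from a gene, the log2 in cKO was 1.91 ± 0.41 (edgeR adjusted p = 0.279), with 1.32, 0.997 and 3.20 CPM in cKO Dex and 0.448, 0.575 and 0.406 CPM in cKO control, so that cKO Dex replicate 3 alone reached the level of WT Dex (2.26, 3.04 and 2.39 CPM; WT control 0.231, 0.378 and 0.488 CPM). Within Adam9, which encodes a membrane metalloproteinase, the site at chr8:25014045-25014338 had a log2 of 1.33 ± 0.29 in cKO (edgeR adjusted p = 0.287). At chr7:73608912-73609281, 67.3 kb from a gene, it was 1.01 ± 0.23 (edgeR adjusted p = 0.379). Within Bcas3, at chr11:85506747-85507152, it was 1.24 ± 0.31 (edgeR adjusted p = 0.582).

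**Figure D3:**
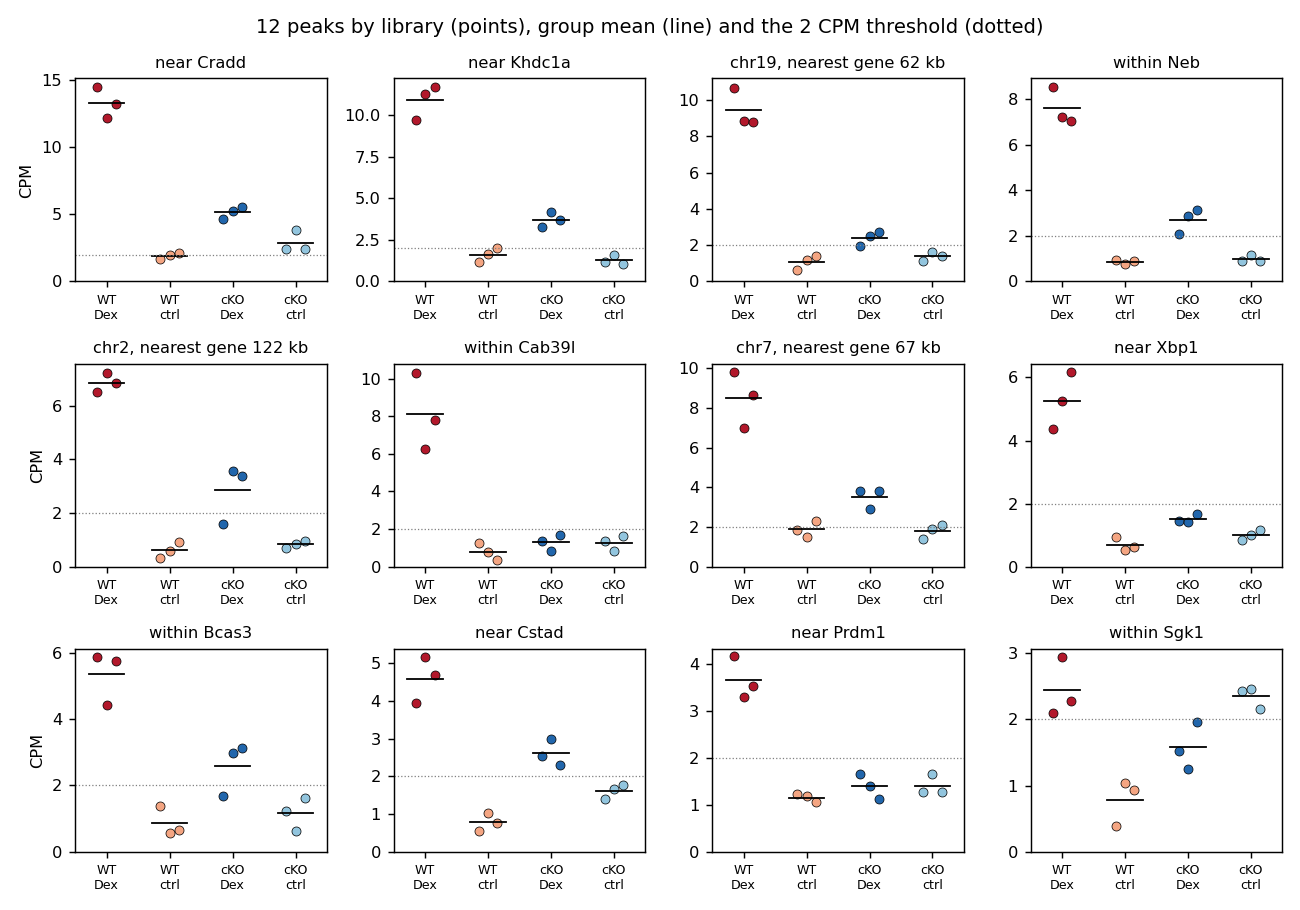
CPM by library (points) and group mean (line) at 12 sites, each panel on its own axis from 0, in the order WT Dex, WT control, cKO Dex and cKO control; the dotted line is 2 CPM. The sites near Khdc1a, within Neb and on chromosome 2 show cKO Dex above cKO control and below WT Dex, and the site within Cab39l shows cKO groups that overlap.

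In the contrast that chose the sites, 129 of 183 were called higher with Dex in WT, beside 851 of all tested peaks (0.42%), and the median log2 was 1.32 with a range of 0.99 to 3.57. The difference between the Dex effects of WT and cKO, of which the WT part was chosen, was called at 9 sites, beside 55 of all tested peaks (0.0271%); its median was 1.09. Across the 183 sites Pearson's r of the WT and cKO log2 values was 0.484, a description over sites that share libraries, depth and, in part, loci. Among the 129 sites called in WT, the median log2 in cKO was 0.37, with 116 above 0 and 37 (28.7%) whose cKO groups did not overlap upwards. Among the other 54, the median was 0.22, with 42 above 0 and 4 (7.41%) without overlap upwards. The same held at 4.29% of all tested peaks and 2.77% of those under 2 CPM in WT control. This split follows the WT values that chose the sites. The 129 were also stronger, with a median WT Dex mean of 3.57 CPM against 2.36 CPM, so nothing is read from the split. At 6 sites the cKO Dex mean was at least the WT Dex mean, and at 133 of 183 sites every cKO Dex library was below every WT Dex library, against 4.93% of all tested peaks and 2.96% of those under 2 CPM in WT control. The WT Dex libraries of this count chose the sites, so nothing is read from it.

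**Figure D4:**
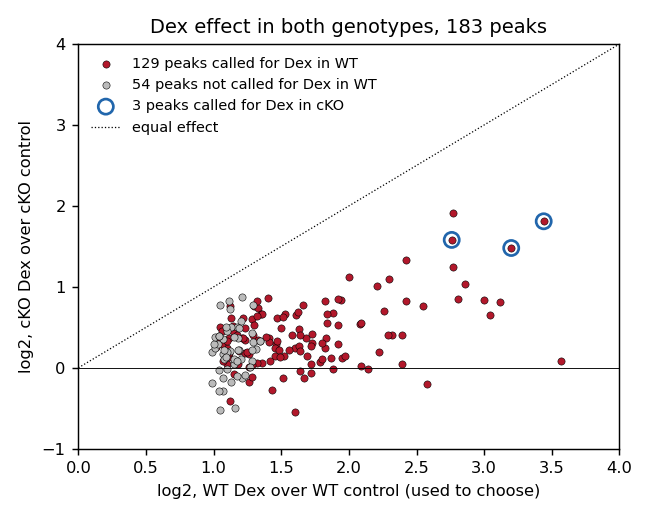
Log2 fold change of Dex in cKO (vertical) against that in WT (horizontal, used to choose the sites) for the 183 sites; red points are the 129 called in WT, grey the other 54, and blue rings the 3 called in cKO. All points lie below the dotted line of equal effect, which the choice on the WT libraries favours.

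The strongest site in WT Dex lay near Cradd, which encodes an adaptor that links death domain proteins to caspase-2, at chr10:95144382-95145200. It stood at 14.5, 12.2 and 13.2 CPM in WT Dex and 1.69, 1.99 and 2.11 CPM in WT control, and at 4.66, 5.24 and 5.55 CPM in cKO Dex and 2.43, 3.82 and 2.43 CPM in cKO control. The cKO groups did not overlap and the log2 there was 0.85 ± 0.20, which was not called (edgeR adjusted p = 0.361). The site at chr19:23056894-23057202 was assigned to no gene, the nearest protein-coding gene being 61.6 kb away. The nearest listed gene start, at 84.2 kb, was that of Klf9, a GR-induced zinc finger factor. This site stood at 10.7, 8.87 and 8.78 CPM in WT Dex and 0.616, 1.18 and 1.38 CPM in WT control. In cKO it had 1.95, 2.53 and 2.75 CPM with Dex and 1.15, 1.62 and 1.42 CPM in control (log2 0.81 ± 0.26, edgeR adjusted p = 0.835).

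The site with the largest log2 fold change in WT lay within Cab39l, which encodes a scaffold of the LKB1 kinase complex, at chr14:59506209-59506541. It stood at 10.3, 6.24 and 7.81 CPM in WT Dex and 1.23, 0.757 and 0.325 CPM in WT control. In cKO Dex it had 1.36, 0.831 and 1.68 CPM and in cKO control 1.34, 0.836 and 1.62 CPM. The cKO groups overlapped (log2 0.08 ± 0.33, edgeR adjusted p = 0.987).

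Other sites with cKO values near 0 were within Trip12, an E3 ubiquitin ligase gene (chr1:84823488-84824016, log2 -0.01 ± 0.26), near Gab2, the gene of a docking adaptor of receptor signalling (chr7:97074513-97074792, -0.01 ± 0.30), and near the olfactory receptor gene Olfr225 (chr11:59612143-59612575, 0.01 ± 0.27). The Trip12 site stood at 7.02, 5.73 and 5.70 CPM in WT Dex and 0.693, 1.56 and 1.83 CPM in WT control, against 1.83, 2.45 and 2.69 CPM in cKO Dex and 2.69, 2.82 and 1.62 CPM in cKO control. Near Xbp1, the transcription factor of the unfolded protein response, the site at chr11:5502576-5503172 had 4.35, 5.26 and 6.16 CPM in WT Dex and 0.924, 0.520 and 0.610 CPM in WT control. In cKO its libraries had 1.44, 1.41 and 1.68 CPM with Dex and 0.832, 0.993 and 1.15 CPM in control, without overlap but not called (log2 0.65 ± 0.31, edgeR adjusted p = 0.85). Near Cstad (chr2:30550699-30551210) the cKO log2 was 0.76 ± 0.27 (edgeR adjusted p = 0.838).

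Of 39 GR target genes with a tested peak, 4 (10.3%) had an opened site, Sgk1, Zbtb16, Cxcr4 and Bcl2l11, against 124 of all 17344 genes (0.715%); this list was written with earlier results of these data known and genes with many peaks have more chances. None of their sites was called in cKO. The Sgk1 site lay within the gene at chr10:21998412-21999305, and its 2.09, 2.94 and 2.28 CPM in WT Dex stood against 0.385, 1.04 and 0.935 CPM in WT control. In cKO the order was the opposite, with 1.52, 1.25 and 1.96 CPM with Dex and 2.43, 2.46 and 2.16 CPM in control. The cKO groups did not overlap, and the log2 of -0.55 ± 0.30, the lowest of the 183, was not called (edgeR adjusted p = 0.862).

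Within Zbtb16, the gene of the transcription factor PLZF, the site at chr9:48740217-48740674 had 4.64, 4.54 and 5.19 CPM in WT Dex and 2.16, 1.42 and 1.46 CPM in WT control. Its cKO libraries overlapped, with 2.59, 1.75 and 2.58 CPM in Dex and 2.50, 2.04 and 1.49 CPM in control (log2 0.24 ± 0.26). Near Cxcr4, the chemokine receptor that holds lymphocytes in bone marrow, the site at chr1:128608099-128608529 lay 16.0 kb from the gene and was weak, with 2.26, 3.71 and 1.88 CPM in WT Dex and 0.154, 0.993 and 0.854 CPM in WT control. In cKO it had 1.59, 0.956 and 2.08 CPM with Dex and 0.640, 0.888 and 1.08 CPM in control, which overlapped (log2 0.85 ± 0.39, edgeR adjusted p = 0.848).

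Of 18 apoptosis genes, 3 (16.7%) had an opened site, Bcl2l11, Pmaip1 and Cradd, against 0.715% of all genes with a tested peak. This list, too, was written with earlier results of these data known, and it is too short for the shares to be compared. Bcl2l11 and Pmaip1 encode the death-promoting BH3 proteins Bim and Noxa. The Bcl2l11 site (chr2:128160309-128160853) stood at 4.88, 4.80 and 6.90 CPM in WT Dex and 2.0, 1.42 and 1.79 CPM in WT control, and at 2.15, 2.16 and 3.03 CPM in cKO Dex and averaged 2.02 ± 0.145 CPM (SD, n = 3) in cKO control, where the groups overlapped (log2 0.31 ± 0.25). The site near Pmaip1 (chr18:66477874-66478430) had cKO groups without overlap, and no test compared it with the Bcl2l11 site. Its 2.63, 3.41 and 3.59 CPM in cKO Dex overlapped the WT Dex libraries (3.89, 3.15 and 2.91 CPM) and stood above cKO control (2.37, 1.62 and 1.89 CPM), while WT control had 1.39, 1.75 and 1.55 CPM. Its log2 of 0.76 ± 0.25 in cKO was not called (edgeR adjusted p = 0.837), and its WT value was 1.12 ± 0.26.

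Like the apoptosis list, the other lists are too short to be read against the 0.715% of all genes with a site. None of 30 Th17 genes had one, nor any of 18 circadian clock genes, 27 AP-1 and NF-kB genes, 21 genes of steroid synthesis and sensing, 14 T cell identity genes, 9 B cell markers, 10 markers of CD8 T and NK cells, 14 of myeloid and dendritic cells or 9 of erythroid and stromal cells. In all, 9 of 249 list genes with a tested peak had a site. Of 16 checkpoint and costimulation genes 1 did, Prdm1, which encodes the repressor Blimp-1; the site at chr10:44565022-44565430, 36.7 kb from the gene, had 4.18, 3.30 and 3.54 CPM in WT Dex and 1.23, 1.18 and 1.06 CPM in WT control, and cKO groups that overlapped at 1.67, 1.41 and 1.12 CPM with Dex and 1.28, 1.67 and 1.28 CPM in control (log2 0.05 ± 0.31). Of 26 other T cell state genes 1 did, Tox, a regulator of T cell development and exhaustion (chr4:6978234-6978839), with a cKO log2 of 0.13 ± 0.25. Of 7 melanocortin and pigment genes 1 did, Mchr1, a receptor of melanin-concentrating hormone (chr15:81249338-81249925), with 3.48, 2.84 and 4.11 CPM in WT Dex and 1.39, 0.378 and 0.447 CPM in WT control, and a cKO log2 of 0.82 ± 0.37 that was not called (edgeR adjusted p = 0.844). The site was 300 bases from a stronger peak called in WT, with mean levels of 35.8 CPM in WT Dex and 11.3 CPM in WT control.

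The sites were far from gene starts. None of the 174 searched for starts covered a listed start or had its centre within 250 bases of it, against 5.45% of all tested peaks and 0.953% of those under 2 CPM in WT control, and the nearest was 607 bases away. Their median distance was 54.4 kb, against 26.6 kb for all tested peaks and 29.2 kb for those under 2 CPM. Of the 183, 81 (44.3%) lay within a protein-coding gene, against 58.3% of all tested peaks and 57.2% of those under 2 CPM, and 38 (20.8%) had none within 50 kb, against 10.3% and 11.1%. The 129 sites called in WT lay within a gene in 36.4% of cases, the other 54 in 63.0%. Sites were 245 to 1052 bases wide with a median of 427, against 378 for all tested peaks and 284 for those under 2 CPM. Exon, intron and UTR positions were not analysed here.

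**Figure D5:**
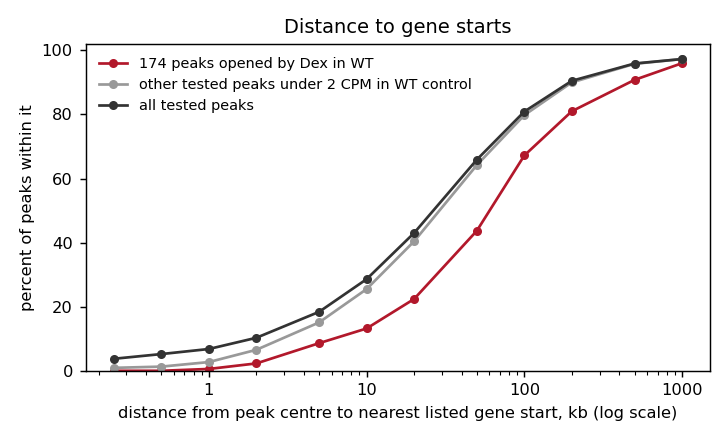
Percent of peaks (vertical) whose centre lies within a given distance in kb (horizontal, log scale) of the nearest listed gene start, for 174 sites (red), the other tested peaks under 2 CPM in WT control (grey) and all tested peaks (black). At 50 kb the sites reach 43.7%, the other weak peaks 64.2% and all tested peaks 65.9%.

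The starts of the genes assigned to the sites were read only where they carried a peak, and few of these peaks were called. This was so for 82 of the 124 genes. At their 93 start peaks the median level in WT control was 21.5 CPM, against 17.9 CPM at the 11190 start peaks of all genes. The median log2 of Dex was 0.14 in WT and 0.11 in cKO, against 0.09 in WT and 0.10 in cKO at the start peaks of all genes. In WT 2 of the 93 (2.15%) were called higher, those of Sgk1 and Arap2, against 17 of 11190 (0.152%). Those WT calls come from the libraries that chose the sites and so their genes, and they are a description. In cKO 0 of the 93 and 0 of the 11190 were called higher. Arap2 encodes a GTPase-activating protein of Arf6, and its start peak (chr5:62765524-62766873) averaged 22.7 CPM in WT Dex and 14.5 CPM in WT control (log2 0.69 ± 0.13, edgeR adjusted p = 0.00103), and 16.4 CPM in cKO Dex and 14.2 CPM in cKO control (0.27 ± 0.13, adjusted p = 0.852).

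Many sites stood beside other peaks that were higher with Dex in WT. Of the 183, 57 (31.1%) had within 50 kb another peak called higher in WT that was not itself among the sites, against 6.33% of tested peaks under 2 CPM, and 20 (10.9%) had one within 5 kb, against 0.865%. These neighbours were measured in the libraries that chose the sites. The 256 other peaks within 10 kb of a site had a median log2 of 0.29 in WT, with 76.2% above 0 and 16 called higher (6.25%), and a median of 0.08 in cKO, with 59.0% above 0. Chained at 50 kb, 144 sites stood alone and 39 formed 17 clusters of 2 or 3, so the sites are not all independent.

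The tightest cluster of 3 lay within Bcas3, a gene of a cytoskeleton-associated protein, over 2.14 kb at chr11:85505012-85507152. The summed level of its 3 sites was 12.2, 9.49 and 10.9 CPM in WT Dex and 2.39, 1.84 and 2.03 CPM in WT control, and 4.70, 4.90 and 5.16 CPM in cKO Dex and 3.14, 1.67 and 3.04 CPM in cKO control. The cKO groups did not overlap, and the log2 values of the 3 sites in cKO ran from 0.55 to 1.24, of which none was called. Another called peak stood 196 bases from the last of them, and Bcas3 held 2 further sites, 5 in all.

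Rsu1, which encodes a protein of integrin adhesions, held 3 sites over 26.5 kb with cKO log2 values between 0.33 and 0.82. In Rapgef6, a gene of an activator of Rap GTPases, the values of its 3 sites were 0.06, 0.35 and 0.41, and in Ppm1l, a phosphatase gene, those of its 3 sites were 0.14, 0.11 and 0.06. None of these 9 was called in cKO. The cluster of 3 on chromosome 19 (chr19:23036836-23058105) had cKO values between 0.08 and 0.81. Its sites were assigned to Trpm3 or to no gene within 50 kb, and none to Klf9.

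Of the 25 sites with a negative value in cKO, the lowest after Sgk1 were near Arl5b, a small GTPase gene (chr2:15090403-15090751, log2 -0.52 ± 0.32, edgeR adjusted p = 0.873), and near Meig1, a gene needed for sperm formation (chr2:3388354-3388795, -0.50 ± 0.33, edgeR adjusted p = 0.884). Near Arl5b the cKO libraries had 1.59, 1.04 and 1.57 CPM with Dex and 2.24, 1.15 and 2.97 CPM in control, which overlapped.

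The same thresholds applied the other way round, for peaks under 2 CPM in WT Dex and above it in WT control, kept 172 peaks. Of these, 42 were called lower in WT. In cKO 109 of 172 had a log2 below 0, with a median of -0.07. Below 0 were also 102400 of all 202587 tested peaks (median -0.00428) and 77654 of the 127349 under 2 CPM in WT control (median -0.13). Every cKO Dex library was below every cKO control library at 24 of the 172 (14.0%), against 6.57% of all tested peaks and 7.89% of those under 2 CPM. The 172 themselves were not under 2 CPM in WT control, so this last background is not matched to them. Applied to the cKO libraries, the thresholds kept 19 opened and 169 lowered peaks. Of the 19, 7 were among the 183 sites, which is 36.8% of the 19 and 3.83% of the 183.

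The edges of the choice were close to their neighbours. The site nearest under the control limit, near H2-T-ps, had a WT control mean of 1.95 CPM, and a peak near Plaur (chr7:24455311-24456002) that met all other conditions had 2.0 CPM. The site near Ctla2a (chr13:60932469-60932833) had a WT Dex mean of 2.0 CPM, and a peak near Rps6ka1 (chr4:133900257-133900635) was left out at 1.99 CPM. Of the peaks that failed a single condition, 126 failed the control limit, 1859 the Dex minimum, 775 the fold and 6 the separation of libraries.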

How the data were processed

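ATAC-seq of 12 libraries was analysed from raw whole-number counts per peak deposited by the authors for 222105 joint peaks, not normalised. The submitters' processing notes name Genrich 0.6.1, featureCounts 2.1.1, Bowtie2 2.3.5, Trimmomatic 0.39, SAMtools 1.3, Picard 2.18.27 and deepTools 3.5.6 with build mm10. Tool roles, read filters, any shift for the transposase cut and pooling of libraries for peak calls are not given in sources used here; a joint peak set can favour sites open in the Dex libraries it includes. The peak width and positions were used as deposited by the authors.

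The members, gene lists and tests were chosen with earlier results of these data known. Under R 4.3.3, filterByExpr of edgeR 4.0.16 (minimum count 10, total 15) left 202587 peaks, which were scaled by TMM and fitted with the robust quasi-likelihood F-test to all 12 libraries with 1 coefficient per group (8 residual degrees of freedom; median biological coefficient of variation 24.8%). P-values were two-sided and Benjamini-Hochberg adjusted over all tested peaks, with calls at adjusted p under 0.05; SE is that of the log2 fold change. CPM values in the text use library totals; fold changes use TMM. The steps were tested on simulated data. DESeq2 1.42.0 and limma 3.58.1 (voom) were alternatives, with other scalings, filters, a replicate block and libraries left out. Nothing in the labels says that the 3 libraries of a group came from separate mice or cultures, so p-values reflect only how these libraries spread, which may be technical, and counts of PCR copies are not independent molecules.

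Genes were assigned from GRCm38.p6 spans (21627 protein-coding genes): the gene holding the peak centre, otherwise the nearest within 50 kb. Promoters and starts came from RefSeq for 17273 of them, with chromosome 18 not used. Named sites were those with the smallest p in WT (10), those called or leading in cKO, the strongest, those at list genes, genes with 3 or more sites, both ends of the cKO control level, the lowest and the nearest to 0 in cKO, and those at each threshold.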

Additional observations from a re-analysis of the deposited data

Results flagged for a closer look

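At 6 of the named sites the Dex effect in WT exceeded that in cKO by the edgeR interaction test. The WT part of each difference comes from the libraries that chose the sites, which makes it larger, so the values are a description. The difference in log2 fold change was 1.95 ± 0.28 near Cradd (SE, n = 3 per group, adjusted p = 6.82e-05), 2.31 ± 0.36 at chr19:23056894-23057202 (adjusted p = 0.000458), 3.49 ± 0.46 within Cab39l (adjusted p = 1.58e-05), 2.39 ± 0.44 near Xbp1 (adjusted p = 0.00752), 2.15 ± 0.44 within Sgk1 (adjusted p = 0.0386) and 2.15 ± 0.37 within Trip12 (adjusted p = 0.00171). At Sgk1 the cKO part was -0.55 ± 0.30 and the WT part 1.60 ± 0.33. At Cab39l the cKO part was 0.08 ± 0.33.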

How the results depend on the processing

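The direction of the sites' median log2 for Dex in cKO was positive under all alternatives run. It was 0.24 with a stricter filter, which left 137 of the 183 sites, 0.26 with total counts, 0.36 with loess offsets and 0.29 to 0.36 with a library left out. The number of sites called higher in cKO was 0 with limma-voom and 1 with the cKO libraries alone, and 0 to 3 with a library left out; no fit called a site lower. Over all tested peaks the higher calls were 10 with DESeq2, 2 with limma-voom and 3 with the cKO libraries alone, and 1 to 41 with a library left out, with 0 to 273 lower; the cause was not tested. Sites without overlap in cKO numbered 50 (27.3%) with TMM-scaled CPM, against 5.27% of all tested peaks, and 53 to 61 (29.0 to 33.3%) with a cKO library left out, against 7.7 to 8.99% of all tested peaks. The number of sites was 456 with limits of 1 CPM (55 of them among the 183), 140 with limits of 3 CPM (95 among the 183), 226 with TMM-scaled CPM (all 183 among them), 59 at a 3-fold minimum, 19 for the thresholds applied to cKO (7 among the 183), and 215 to 296 with a WT library left out, 296 without WT control replicate 3. The share within a gene was 36.4% for the sites called in WT. Sites called in WT numbered at most 158 over the scalings and tests; an added alternative, chosen after seeing the data, fitted the WT libraries alone and called 152. Same-numbered cKO libraries correlated at -0.007, 0.153 and 0.036 in their deviations from group means, and differently numbered ones at -0.162 to 0.127. Across genotypes, cKO Dex replicate 3 correlated at 0.258 with WT Dex replicate 3 and at 0.245 with WT control replicate 1. Such values cannot settle whether the numbers pair the samples, which the labels do not say. With the replicate block, 3 sites and 7 peaks in all were called higher in cKO, the median was 0.33 and 147 sites were called in WT. Of the values of named sites under an alternative, 897 kept their sign and call, 20 lost a call and 41 uncalled values changed sign. The median log2 of all tested peaks in cKO was -0.0577 with total counts, beside -0.00428 with TMM. The median site had 42 reads per library in cKO Dex and 25 in cKO control, which limits the precision of single values.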
